A study of Rattus norvegicus with 36 samples.

Results

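The Kv4 potassium channel genes Kcnd1, Kcnd2 and Kcnd3 and the auxiliary subunit gene Kcnip2 were measured in rat dorsal root ganglia after ligation of the L5 spinal nerve. A probe set, the group of oligonucleotides by which an Affymetrix array measures a transcript, was taken as a member when its platform annotation gave one of these 4 symbols and no other gene. That rule found 7 of the 26202 probe sets of the 3 chip types (A, B and C) of the RG_U34 array: 1 for Kcnd1, 2 for Kcnd2, 3 for Kcnd3 and 1 for Kcnip2. The array names 10969 genes in all by such single-gene probe sets. The 4 genes were chosen by their signal differences between L5 and sham ganglia, which were already known. L5 against sham and L5 against L4 are therefore given here as a description, with no p-value for these genes. L4 against sham and the day comparison reuse some or all of the same pools, and their p-values are given with that limit.

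Dorsal root ganglia hold the cell bodies of sensory neurons, and total RNA of pooled ganglia was measured in 6 pools. L5 ganglia came from rats with the ligated L5 nerve, the injured ganglion of this neuropathic pain model, at 28 and 50 days after surgery. L4 ganglia, the uninjured neighbours, came from rats with the same ligation at the same days. Sham ganglia came from sham-operated rats at the same days and were a mixture of L4 and L5 ganglia, so a standing difference between the spinal levels cannot be told apart from the effect of the ligation. This holds for both comparisons with sham and most of all for L5 against L4, which are different levels throughout. Where a number of animals is given it is 30 rats to a pool, and every pool was hybridised to 2 arrays per chip type. The labels used here give no strain, sex or age. The 2 arrays of a pool share their RNA, and the 2 pools of each kind of ganglion come from different days, so no group holds 2 pools of the same day.

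Kv4 channels carry the A-type current, a potassium current that switches on below the firing threshold, inactivates quickly, and delays and spaces action potentials. Kcnd1, Kcnd2 and Kcnd3 encode the pore-forming subunits Kv4.1, Kv4.2 and Kv4.3. Kcnip2 encodes KChIP2, one of the calcium-binding channel-interacting proteins that bring Kv4 to the cell surface and slow its inactivation. In sensory neurons the A-type current restrains excitability, and its loss is a long-studied feature of nerve injury models.

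Values are array signals scaled by the authors so that each array has about the same trimmed mean. A difference is a difference of log2(signal + pseudocount), where the pseudocount was 12.8 on chip A and 17.7 on chip B, so differences of dim probe sets are understated. The probe sets of Kcnd2 and Kcnd3 are on chip A, and those of Kcnd1 and Kcnip2 on chip B. Of the 7 probe sets, 5 were bright enough to enter the fit (a mean signal of at least 39.3 on chip A and 53.6 on chip B), and 2 were not. The Kcnd2 probe set S64320_at lay just inside that limit at 42.5, and the nearest outside it was the Kcnd3 probe set M74898cds_s_at at 24.2. In bulk RNA of a ganglion, fewer cells of a type and less RNA per cell cannot be told apart. The arrays held neuronal RNA by their neuronal markers: 15 of 16 listed neuronal genes had a probe set, and all 15 entered the fit. Their summed signal was 43113 to 47626 in L5 pools, 47671 to 50955 in L4 pools and 46281 to 55669 in sham pools.

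The upstream sequence of Kcnd3 is shown because 1 of this gene's probe sets had the lowest L5 level relative to sham of all the members. The 250 bases before the start of Kcnd3 in the RefSeq promoter table (build GRCr8, chr2:195626066-195626315, plus strand) read as below, with capitals marking the single GC box, searched as GGGCGG or CCGCCC:
Kcnd3: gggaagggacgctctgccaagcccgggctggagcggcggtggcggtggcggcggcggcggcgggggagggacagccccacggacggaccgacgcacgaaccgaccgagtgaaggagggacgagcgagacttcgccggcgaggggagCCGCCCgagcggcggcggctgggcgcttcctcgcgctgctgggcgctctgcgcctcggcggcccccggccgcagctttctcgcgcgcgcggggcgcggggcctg
The GC box starts 104 bases before the start of the gene. This window was 79.6% G or C with 43 CpG pairs, where the median of all 33469 promoters of the table was 51.2% and 5 CpG pairs. The windows of Kcnip2 and Kcnd2 were 68.0% and 64.0% G or C, with 12 and 20 CpG pairs. Kcnip2 held 2 GC boxes, Kcnd2 held 0, and 30.5% of all promoters held at least 1. None of the 3 windows held TATAAA on either strand, which 12.9% of all promoters did. These matches describe the letters of the window alone. A promoter was found for 3 of the 4 genes; Kcnd1 is named only.

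Kcnd1 gave the steadiest picture of the 4 genes. Its only probe set, rc_AA957975_at, was brighter than 90.5% of chip B, with a mean of 444. The 2 L5 arrays of 28 days read 169 and 174.2, and those of 50 days 206 and 191.9. The L4 arrays read 594.5 and 718.5 at 28 days and 632.6 and 567.7 at 50 days. The sham arrays read 465.1 and 472.5 at 28 days and 603.3 and 533.2 at 50 days. All 4 L5 arrays therefore lay below the other 8, and the 2 arrays of a pool stayed close to each other in every pool. The signal averaged 185 ± 19.3 in L5, 628 ± 39.8 in L4 and 519 ± 70.3 in sham ganglia (SD, n = 2 pools each).

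The Kcnd1 signal in L5 was 0.380 of that in sham on the log2(signal + pseudocount) scale, a difference of -1.40 ± 0.18 (SE of the limma fit). That was -1.36 at 28 days and -1.43 at 50 days, so the later pools differed by as much as the earlier ones. It was the 33rd lowest of the 15721 probe sets in the fit. Against L4 the difference was -1.67 ± 0.18, with -1.83 at 28 days and -1.51 at 50 days. In order of level, the L4 pool of 28 days (656), the L4 pool of 50 days (600) and the sham pool of 50 days (568) overlapped in their arrays. The sham pool of 28 days (469), the L5 pool of 50 days (199) and the L5 pool of 28 days (172) followed without overlap.

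**Figure D1:**
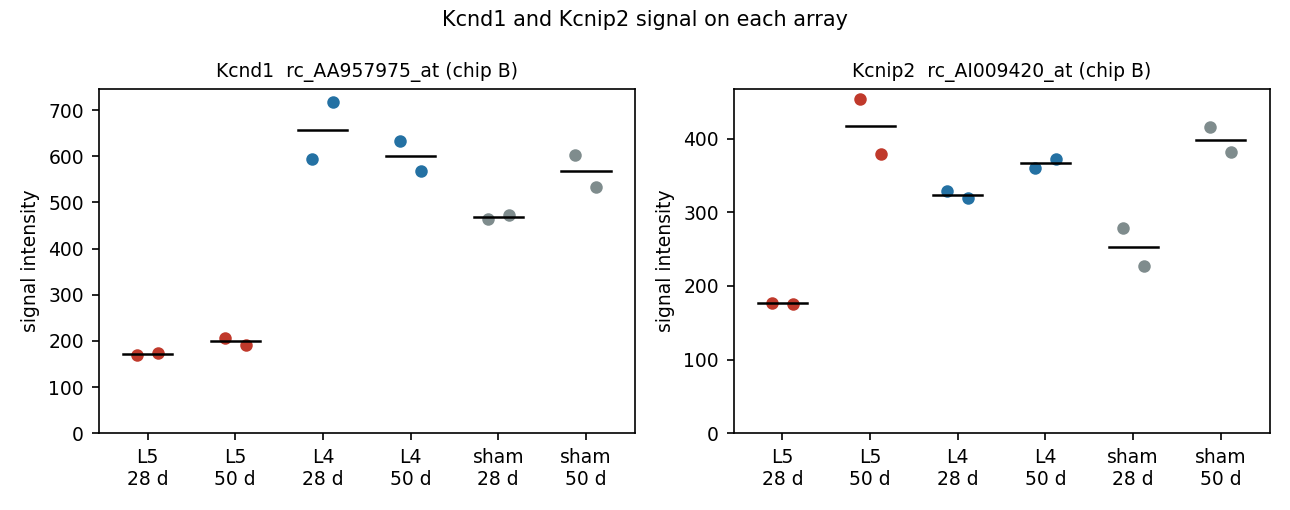
Signal intensity (linear axis from 0) of Kcnd1 and Kcnip2 on each chip B array, by kind of ganglion and day after surgery; each point is 1 array and each bar the mean of the 2 arrays of a pool. The 4 L5 points of Kcnd1 lie at 169 to 206, below all others, while the L5 points of Kcnip2 are the lowest at 28 days (176 and 176.5) and lie on either side of the sham points at 50 days (453.6 and 379.7).

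Kcnd3 was measured by 3 probe sets on chip A, and they did not show the same pattern. The brightest, rc_AI230211_s_at, had a mean of 144 and was brighter than 72.9% of the chip. It read 77.5 and 30 in L5 at 28 days and 15.1 and 106.3 at 50 days. In L4 it read 154.6 and 174.9 at 28 days and 246 and 210.6 at 50 days. In sham it read 233.9 and 172.5 at 28 days and 167 and 137.9 at 50 days. The 4 L5 arrays again lay below the other 8, but the 2 arrays of the same L5 pool differed from each other by 2.58 times at 28 days and 7.04 times at 50 days. The 2 arrays of each L4 and sham pool differed by 1.13 to 1.36 times. The L5 level is thus low by every array, but its value is poorly fixed.

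By this probe set the Kcnd3 signal averaged 57.2 ± 4.91 in L5, 197 ± 44.9 in L4 and 178 ± 35.9 in sham ganglia (SD, n = 2 pools each). The L5 minus sham difference was -1.65 ± 0.27 (SE), or 0.319 of sham, with -1.78 at 28 days and -1.51 at 50 days. It was the 12th lowest of the 15721 probe sets. From the first array of each pool alone it was -2.07, and from the second alone -1.23. The L5 minus L4 difference was -1.79 ± 0.27, with -1.51 at 28 days and -2.06 at 50 days. The order of the pools was L4 at 50 days (228), sham at 28 days (203), L4 at 28 days (165) and sham at 50 days (152), each overlapping with the next, then L5 at 50 days (60.7) and L5 at 28 days (53.8), which overlapped with each other alone.

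The second Kcnd3 probe set, U92897_s_at, was dimmer, with a mean of 58.7, and was not low in L5. Its L5 arrays read 27.8 and 39.1 at 28 days and 149.9 and 59.6 at 50 days. Its L4 arrays read 19.5 and 78.9 at 28 days and 46.6 and 94.1 at 50 days. Its sham arrays read 20.5 and 26.6 at 28 days and 52.6 and 90.5 at 50 days. Over both days the 3 kinds of ganglion overlapped, although at 28 days both L5 arrays lay above both sham arrays. The L5 minus sham difference was 0.37 ± 0.37 (0.34 at 28 days and 0.40 at 50 days), as large as its own error, and the L5 minus L4 difference was 0.10 ± 0.37.

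The third, M74898cds_s_at, was too dim for the fit. It read 7.1 and 42.8 in L5 at 28 days, 25.9 and 54.7 in L5 at 50 days, 48.7 and 13.8 in L4 at 28 days, 20.5 and 9.2 in L4 at 50 days, 4.9 and 19.7 in sham at 28 days and 33.7 and 9.7 in sham at 50 days. Its arrays overlapped between all 3 kinds of ganglion. When the 2 Kcnd3 probe sets in the fit were averaged, the L5 minus sham difference was -0.64. All 3 probe sets carry the suffix that Affymetrix gives to probes shared by several transcripts, and which transcripts of Kcnd3 each one measures was not tested.

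**Figure D2:**
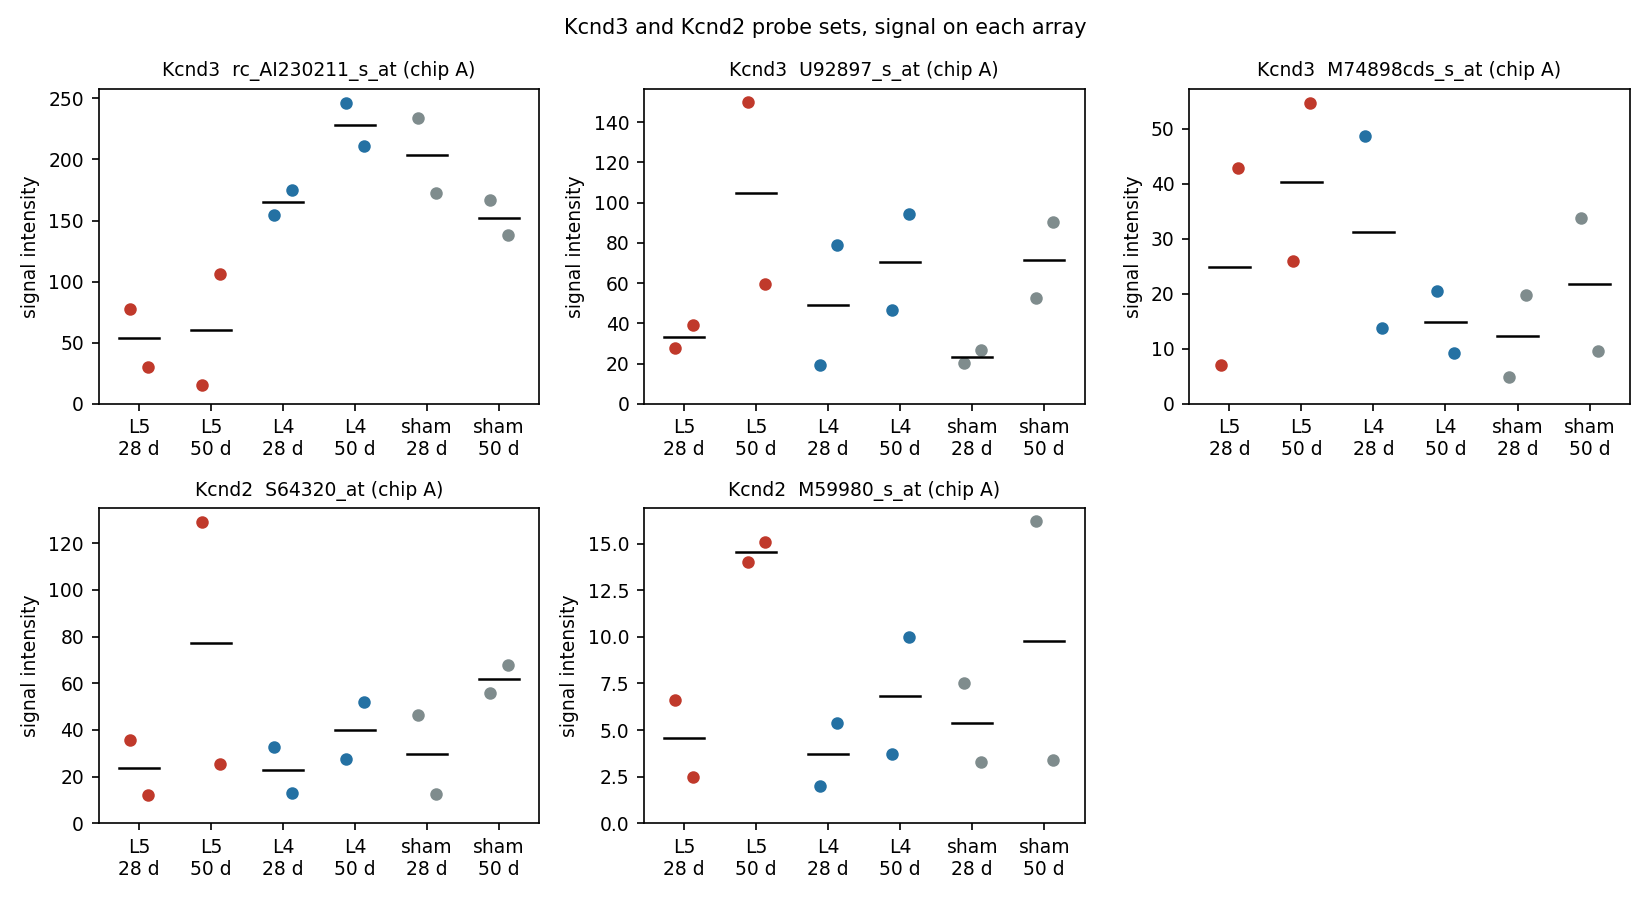
Signal intensity (linear axes from 0, each panel with its own range) of the 3 Kcnd3 and 2 Kcnd2 probe sets on each chip A array, by kind of ganglion and day; each point is 1 array and each bar the mean of the 2 arrays of a pool. In the Kcnd3 probe set rc_AI230211_s_at the 4 L5 points (15.1 to 106.3) lie below the others, and in the other 4 panels the 3 kinds of ganglion overlap.

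Kcnd2 was close to the lower limit of measurement on both of its probe sets. S64320_at, with a mean of 42.5, read 35.6 and 12 in L5 at 28 days and 129.2 and 25.2 at 50 days. It read 32.7 and 13.1 in L4 at 28 days and 27.7 and 52 at 50 days. In sham it read 46.4 and 12.7 at 28 days and 55.9 and 67.9 at 50 days. The groups overlapped, and the L5 minus sham difference of -0.09 ± 0.42 (-0.17 at 28 days and -0.02 at 50 days) was smaller than its error. The L5 minus L4 difference was 0.27 ± 0.42.

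The other Kcnd2 probe set, M59980_s_at, had a mean of 7.47, brighter than 5.07% of chip A, and was not in the fit. It read 6.6 and 2.5 in L5 at 28 days, 14 and 15.1 in L5 at 50 days, 2 and 5.4 in L4 at 28 days, 3.7 and 10 in L4 at 50 days, 7.5 and 3.3 in sham at 28 days and 16.2 and 3.4 in sham at 50 days. Values this close to the pseudocount allow no fold change. Both Kcnd2 probe sets put the 6 pools in the same order of mean signal, with L5 at 50 days first, sham and L4 at 50 days next, then sham, L5 and L4 at 28 days. The arrays of neighbouring pools in that order overlapped, except between sham and L4 at 50 days on S64320_at. No detection calls were used here, so Kcnd2 cannot be called present or absent in these ganglia.

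Kcnip2 was bright, with a mean of 322 on rc_AI009420_at, above 85.3% of chip B. Unlike Kcnd1 and the low Kcnd3 probe set, its L5 level was not low at both days. The L5 arrays read 176.5 and 176 at 28 days and 453.6 and 379.7 at 50 days. The L4 arrays read 328.9 and 319.4 at 28 days and 360.5 and 372.4 at 50 days. The sham arrays read 278.5 and 226.8 at 28 days and 415.2 and 381.4 at 50 days. At 28 days both L5 arrays were thus the lowest of the 12, and at 50 days the L5 arrays lay on either side of the sham arrays.

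Averaged over days, Kcnip2 stood at 296 ± 170 in L5, 345 ± 29.9 in L4 and 325 ± 103 in sham ganglia (SD, n = 2 pools each). The L5 minus sham difference was -0.21 ± 0.24, made of -0.47 at 28 days and 0.06 at 50 days. The L5 minus L4 difference was -0.32 ± 0.24, made of -0.82 and 0.17. Of all probe sets in the fit, 14.2% had an L5 minus sham difference at least as low as that of Kcnip2 at 28 days, and 17.1% moved up by at least as much (0.53) between the days. With 1 pool per kind of ganglion and day, the difference between the days could not be tested. The order of the pools was L5 at 50 days (417) and sham at 50 days (398), which overlapped, then L4 at 50 days (366), L4 at 28 days (324), sham at 28 days (253) and L5 at 28 days (176), with no overlap between neighbours.

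Because the genes were chosen by the L5 and sham signals, the following counts describe that choice and are no test of these genes. Among the 5 probe sets in the fit, Kcnd1 and the Kcnd3 probe set rc_AI230211_s_at lay past the fit's threshold (adjusted p under 0.05) on the low side of sham in L5, and 0 on the high side. Of all 15721 probe sets 0.534% lay past it as lower, 0.229% as higher and 0.763% in either direction. The same 2 had all 4 L5 arrays below all 4 sham arrays, as did 7.58% of all probe sets, and below all 8 other arrays, as did 4.96%. Across all probe sets the median L5 minus sham difference was 0.04, and that of the 5 was -0.21. Neither lay past the threshold without the sham pool of 28 days, Kcnd1 did not without the sham pool of 50 days, and neither did from the first or the second array of each pool alone.

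L5 against L4 shares its L5 pools with that contrast, so it too is a description. Kcnd1 and the same Kcnd3 probe set lay past the threshold on the low side of L4, where 1.01% of all probe sets did, beside 1.27% in either direction. Spinal level and ligation cannot be told apart in this comparison. In the plot of all probe sets against signal the 2 stand at the lower edge of the cloud at moderate to high signal, while Kcnd2, Kcnip2 and the other Kcnd3 probe set stand within it.

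**Figure D3:**
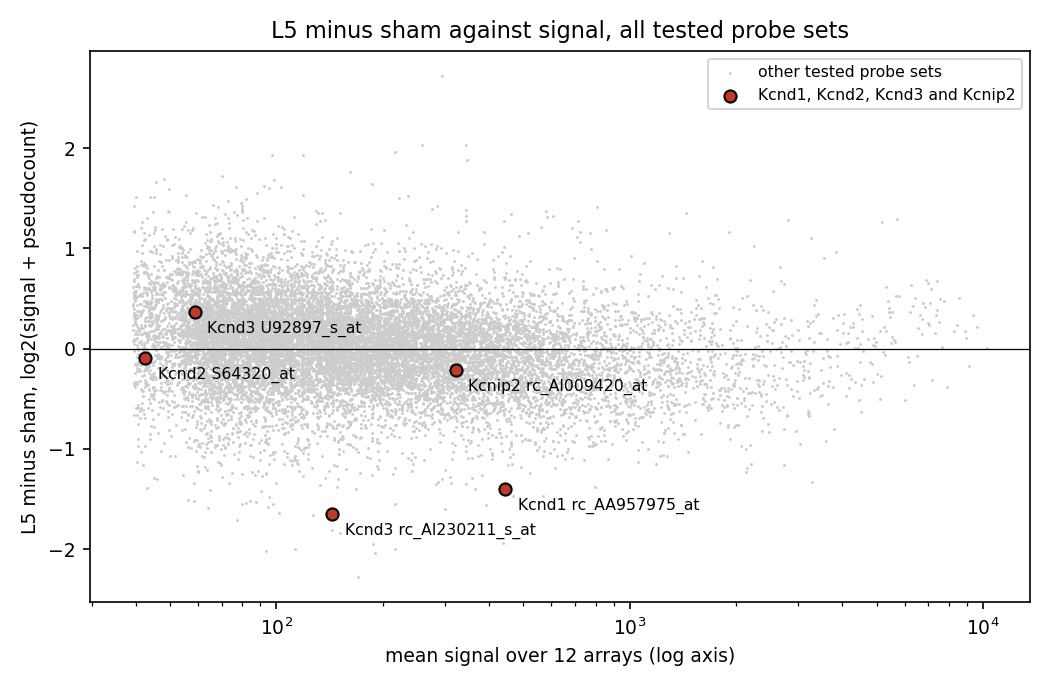
L5 minus sham difference, log2(signal + pseudocount), against the mean signal over 12 arrays (log axis) for the 15721 probe sets in the fit, with the 5 probe sets of Kcnd1, Kcnd2, Kcnd3 and Kcnip2 in red. Kcnd3 rc_AI230211_s_at (-1.65) and Kcnd1 (-1.40) lie at the lower edge, and the other 3 lie between -0.21 and 0.37.

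In L4 ganglia, whose own nerve was not ligated, none of the 5 probe sets passed against sham (limma, Benjamini-Hochberg over all probe sets, adjusted p = 0.9995 for each). The comparison reuses the sham pools by which the genes were chosen, so it is no independent test of them. Of all 15721 probe sets 0% passed, and 427 had an unadjusted p under 0.05; none of the 5 did. The L4 minus sham difference was 0.27 ± 0.18 for Kcnd1 (0.46 at 28 days and 0.08 at 50 days, unadjusted p = 0.17 in limma). For Kcnd3 it was 0.14 ± 0.27 on rc_AI230211_s_at (-0.27 and 0.55) and 0.27 ± 0.37 on U92897_s_at. For Kcnd2 it was -0.36 ± 0.42 and for Kcnip2 0.12 ± 0.24 (0.34 and -0.11). None of the 5 had all 4 L4 arrays above all 4 sham arrays, as 1.95% of all probe sets did.

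The 50-day pools were set against the 28-day pools over the 3 kinds of ganglion. This comparison played no part in choosing the genes, though it holds the same L5 and sham pools. None of the 5 probe sets passed after adjustment (0.286% of all probe sets did), although 3 of the 5 had an unadjusted p under 0.05 in limma, as did 2943 of the 15721. The 3 were all higher at 50 days. The Kcnd3 probe set U92897_s_at differed by 0.99 ± 0.30 (limma adjusted p = 0.15), or 1.99-fold, and was higher at 50 days by 1.24 in L5, 0.55 in L4 and 1.18 in sham. Kcnd2 differed by 0.87 ± 0.34 (limma adjusted p = 0.21), with 1.08 in L5, 0.58 in L4 and 0.94 in sham. Kcnip2 differed by 0.65 ± 0.19 (limma adjusted p = 0.16), with 1.16 in L5, 0.17 in L4 and 0.63 in sham.

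The remaining probe sets differed less between the days. Kcnd1 stood at 0.11 ± 0.15 (limma adjusted p = 0.70) and the Kcnd3 probe set rc_AI230211_s_at at -0.02 ± 0.22 (limma adjusted p = 0.98). The median over all probe sets was 0.04. By the size of the difference U92897_s_at was 78th and the Kcnd2 probe set 158th from the highest. Both are dim, and the arrays of a pool differed by up to 4.05 times on U92897_s_at and 5.13 times on the Kcnd2 probe set.

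One chip B array bears on Kcnd1 and Kcnip2. It is titled as a sham array of 28 days, but its description gives 50 days, and it was kept with the title. Across the 5239 chip B probe sets in the fit it correlated at r = 0.952 with the other sham array of 28 days, and at 0.932 and 0.928 with those of 50 days. Without it the L5 minus sham difference of Kcnd1 was -1.40, and the 50 minus 28 days difference of Kcnip2 was 0.70 (limma adjusted p = 0.16).

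The probe sets of other genes whose pool levels were most like those of each gene were found by Pearson correlation of the log2 values over the 6 pools. For Kcnd1 they were Trappc1 (r = 0.9973), a vesicle-tethering subunit, Kcnk1 (r = 0.9968), a leak potassium channel, and Zfp622 (r = 0.9964), a zinc finger protein. For Kcnd3 (rc_AI230211_s_at) they were Ptgfrn (r = 0.9997), Acot1 (r = 0.9940), an acyl-CoA thioesterase, and Cct3 (r = 0.9920), a chaperonin subunit. For Kcnd2 they were Dym (r = 0.9929), the aldehyde dehydrogenase Aldh2 (r = 0.9875) and the mitochondrial protein Ndufa4 (r = 0.9870). For Kcnip2 they were Nubp2 (r = 0.9950), the lipid kinase Pip5k1c (r = 0.9941) and the GABA-B receptor subunit Gabbr1 (r = 0.9909).

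These are the closest of 11768 probe sets (11767 for Kcnd3) over 6 points that share the same RNA pools, so high values are common. Of the probe sets compared, 207 reached r = 0.95 with Kcnd1, 146 with Kcnd3, 44 with Kcnd2 and 83 with Kcnip2. A like pattern did not mean a like size: the L5 minus sham difference was -0.26 for Trappc1, -0.97 for Kcnk1 and -0.69 for Zfp622, beside -1.40 for Kcnd1. It was -0.36 for Ptgfrn, beside -1.65 for Kcnd3. The Kcnk1 value is that of rc_AA926247_at, and another Kcnk1 probe set in the fit, AF022819_at, stood at -0.25.

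Lists of related genes were chosen with earlier results of these data known, so their p-values and counts are a description. The Kv4 channel complex holds further proteins, and 13 genes for channel-interacting and auxiliary subunits were listed, of which 8 had a probe set and 6 entered the fit. None passed against sham in L5 or in L4, where 0.763% and 0% of all 15721 probe sets did. In L5, 4 of the 6 stood below sham, as did 7274 of all 15721 probe sets. The list's median was -0.61 (-0.67 at 28 days and -0.40 at 50 days), beside 0.04 for all probe sets. Kcnab1, a cytoplasmic beta subunit that speeds channel inactivation, had the largest difference, -1.29 ± 0.24 (limma adjusted p = 0.056). It read 129.4 and 145.7 in L5 at 28 days and 200.8 and 329.4 at 50 days, 317.7 and 434.1 in L4 at 28 days and 379.4 and 382.3 at 50 days, and 476.5 and 553.8 in sham at 28 days and 382.7 and 554.8 at 50 days. All 4 L5 arrays of Kcnab1 thus lay below all 4 sham arrays, as in 7.58% of all probe sets, though 1 L5 array of 50 days lay above an L4 array. Its second probe set, X70662_at, was dim and gave -0.61 (limma adjusted p = 0.48).

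Kcnip1, which encodes KChIP1, a relative of KChIP2, stood at -0.69 ± 0.20 (limma adjusted p = 0.14). It read 247.6 and 217.9 in L5 at 28 days and 372.1 and 281.7 at 50 days, 440.2 and 407.2 in L4 at 28 days and 442 and 406.7 at 50 days, and 493.9 and 462.1 in sham at 28 days and 395.4 and 474.3 at 50 days. The 4 L5 arrays lay below the other 8, as in 4.96% of all probe sets. The difference was -0.99 at 28 days and -0.40 at 50 days. Kcnab2, another beta subunit, stood at -0.65 ± 0.19 (limma adjusted p = 0.12), while its dimmer probe set X76724_at gave 0.45 (limma adjusted p = 0.54). Dpp6, a membrane protein that speeds Kv4 gating, stood at -0.57 ± 0.36 (limma adjusted p = 0.44). Kcne1 and Kcne2 stood at 0.26 ± 0.34 and 0.01 ± 0.26, and the probe sets of Kcnip3 and Kcnab3 were too dim for the fit.

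Of 8 listed scaffolds and calcium sensors that bind Kv4, 5 entered the fit and none passed, with a median of 0.20. The postsynaptic scaffold Dlg4 stood at 0.69 ± 0.24 (limma adjusted p = 0.18), and its relative Dlg1 at 0.24 ± 0.19. The calmodulin genes Calm3 and Calm2 stood at -0.51 ± 0.18 and -0.26 ± 0.18. Of 9 listed kinases that phosphorylate Kv4, 5 entered the fit and none passed, with a median of -0.41. Beside the counts of both lists, 0.763% of all 15721 probe sets passed in L5 against sham. Prkce, a protein kinase C, stood at -0.76 ± 0.20 (limma adjusted p = 0.10) on its brightest probe set, but its other 3 probe sets in the fit gave -0.88, -0.30 and 0.27. The protein kinase A catalytic subunits Prkacb and Prkaca stood at -0.56 ± 0.18 and -0.28 ± 0.22, and a second Prkaca probe set, X57986mRNA_r_at, at 0.29. Prkcb stood at -0.41 ± 0.20 on its brightest probe set, and at -0.64 and 0.16 on K03486_s_at and E01789cds_s_at.

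Of 7 listed transcription factors known to act on Kv4 or Kcnip2 genes, 4 entered the fit and none passed, with a median of 0.13. Over all 15721 probe sets 0.763% passed in either direction. Mef2c stood at 0.38 ± 0.34, Nfatc3 at 0.29 ± 0.18, Nfatc4 at -0.11 ± 0.24 and Mef2a at -0.04 ± 0.20. When arrays were scaled to hybridisation controls, Mef2c stood at -0.00, Nfatc3 at -0.27 and Dlg1 at -0.22. That scaling moved the median of all probe sets to -0.44, and relative to it they stood at 0.44, 0.16 and 0.22. The probe set of Rest, a repressor of neuronal genes, had a mean of 9.35 and was too dim for the fit.

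A-type current can also be carried by other channels. Of 3 such genes 2 entered the fit and neither passed: Kcna4, which encodes Kv1.4, stood at -0.45 ± 0.36 (limma adjusted p = 0.55) and Kcnc4, which encodes Kv3.4, at -0.20 ± 0.39 (limma adjusted p = 0.82). Of 26 listed delayed rectifier and other voltage-gated potassium channel genes, 15 entered the fit, 8 stood below sham and 7 above, and the median was -0.39. Of all 15721 probe sets 7274 stood below sham and 0.534% passed as lower. As with the other lists, p-values here are a description. The 1 that passed was Kcns1, a silent subunit that modifies Kv2 channels, lower in L5 at -1.24 ± 0.24 (limma adjusted p = 0.045). It read 36.9 and 103.7 in L5 at 28 days and 115.6 and 104 at 50 days, 154.9 and 238.3 in L4 at 28 days and 227.2 and 224.9 at 50 days, and 231.5 and 194.3 in sham at 28 days and 215.6 and 221.3 at 50 days. Its 4 L5 arrays lay below the other 8, as in 4.96% of all probe sets.

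The call on Kcns1 was lost under quantile normalization (limma adjusted p = 0.063), with no filter (0.086), with no intensity trend (0.16), from either array alone (0.20) and without the sham pool of 28 days (0.34) or of 50 days (0.097). Kcna1, which encodes the Kv1.1 subunit of large myelinated neurons, stood at -0.88 ± 0.25 (limma adjusted p = 0.12) on its brightest probe set, and its other probe set, M26161_at, passed at -1.01 (limma adjusted p = 0.037). Kcna5, Kcnh6 and Kcnc1 stood at -0.87 ± 0.47, -0.82 ± 0.27 and -0.75 ± 0.30 and did not pass. None of the listed partners and channels passed in L4 against sham, where 0% of all 15721 probe sets did.

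**Figure D4:**
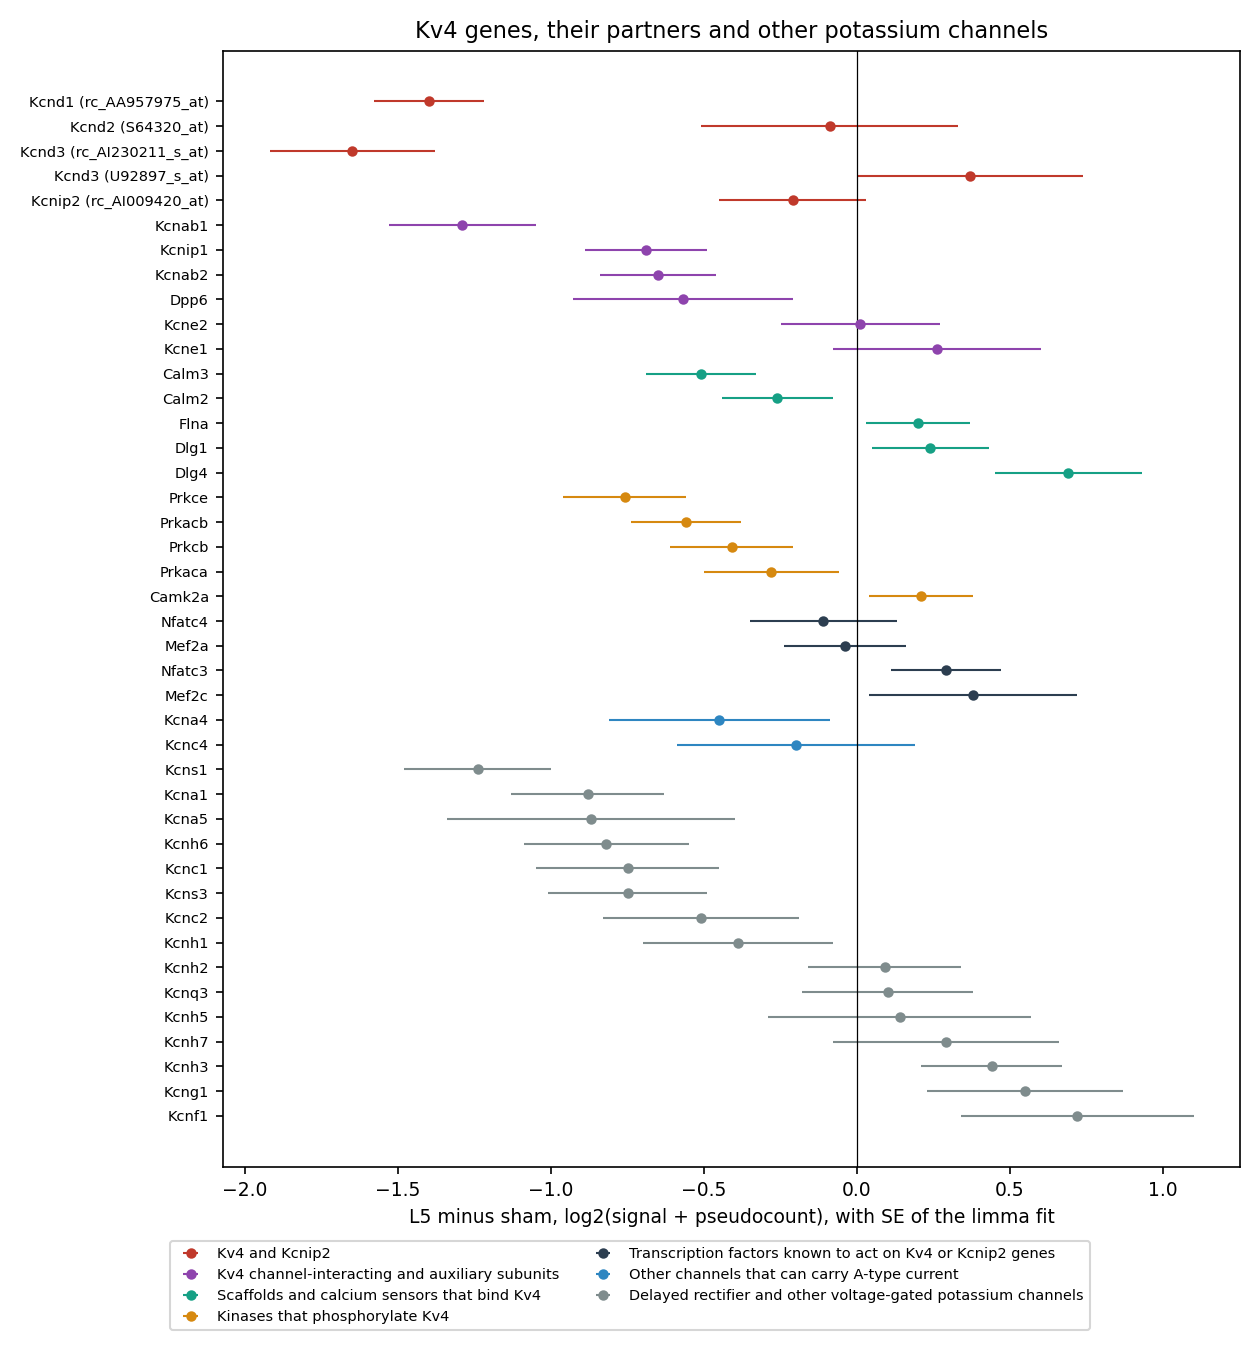
L5 minus sham difference, log2(signal + pseudocount), with the SE of the limma fit as bars, for the 5 probe sets of the Kv4 and Kcnip2 genes (red) and for the brightest probe set in the fit of each of 37 listed partner and potassium channel genes, coloured by list. Kcnd3 rc_AI230211_s_at and Kcnd1 lie lowest, followed by Kcnab1 (-1.29) and Kcns1 (-1.24), and most other genes lie within 1 of 0 on this axis.

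Markers of the cells in the ganglion differed between L5 and sham as well, and are given because Kv4 genes are expressed in neurons. Of the 15 neuronal markers, 13 stood below sham in L5 and 0 passed, with a median of -0.24 (-0.27 at 28 days and -0.38 at 50 days). The medians were -0.88 for 9 markers of large-diameter neurons (2 passed as lower), -0.64 for 6 of peptidergic nociceptors (1 passed as lower) and -0.36 for 5 of nonpeptidergic nociceptors (1 passed as lower). The peptidergic marker that passed was Scn10a (-1.34), and how particular it is to those neurons was not tested. The list of large-diameter markers holds Kcna1 and Kcns1 as well, and Kcns1 is 1 of its 2 that passed. Of all 15721 probe sets 7274 stood below sham in L5 and 0.534% passed as lower. These marker lists were also chosen with earlier results of these data known.

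Among other cells, all 10 macrophage markers stood above sham in L5, with a median of 1.42 at 28 days and 0.12 at 50 days and a summed signal of 5951 and 2073 in L5 at the 2 days, 2091 and 1642 in L4, and 2133 and 1832 in sham. Of the 13 skeletal muscle markers 12 stood above sham in L5 and 1 passed as higher, with a median of 1.85 at 28 days and 0.18 at 50 days. The marker below sham, Pvalb (-0.11), is also in the list of large-diameter neurons. Of all 15721 probe sets 8447 stood above sham in L5 and 0.229% passed as higher. The summed signal of these muscle markers was 3979 and 2677 in L5, 2017 and 2388 in L4, and 1226 and 2404 in sham. Medians were -0.26 for 6 markers of satellite glia, 0.12 for 6 of myelinating Schwann cells and -0.05 for 3 of vascular smooth muscle. No marker in the fit was at 0 on every array, which the brightness limit already required. The part of these shifts in the Kv4 and Kcnip2 values was not tested. As measured values, the macrophage and muscle shifts were larger at 28 days than at 50 days, and at 28 days Kcnip2 was lowest in L5, while the Kcnd1 difference was -1.36 at 28 days and -1.43 at 50 days.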

How the data were processed

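Total RNA of 6 pools of rat dorsal root ganglia was measured on 36 Affymetrix RG_U34 arrays (chip types A, B and C, 2 arrays per pool and chip type). The deposited intensity signals are on a linear scale and were made by the authors with MAS5 per the submitters' processing notes, which name no version. As deposited, the mean of an array after trimming 2% at each end was 150.07 to 150.21, and array medians ran from 50.6 to 92.0. Correlation between both arrays of 1 pool was r = 0.880 to 0.958. The number of arrays limits the precision.

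Signals were rescaled within a chip type to a trimmed mean of 150 and taken as log2(signal + pseudocount), with a pseudocount at the 20th percentile of a chip type. Control probe sets and probe sets with a mean under the 40th percentile were left out, which left 15721. The 2 arrays of a pool were averaged, and limma 3.58.1 in R 4.3.3 was fitted per chip type to the 6 pools with kind of ganglion and day as terms (eBayes with an intensity trend, 2 residual degrees of freedom). Benjamini-Hochberg adjustment ran over the 3 chip types together, with a threshold of 0.05. The code was tested on simulated data. The 28- and 50-day pools stand as the 2 replicates of a kind of ganglion, and p-values measure the spread between pools only.

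Symbols were taken from the platform annotation, and those of all 7 probe sets matched a RefSeq gene table. Each member and each named gene of a list is given by its brightest probe set in the fit with its other probe sets in the fit beside it. Genes named for likeness are given by their closest probe set. From each list the genes that passed and otherwise up to 4 with the largest L5 minus sham difference were named, and for likeness the 3 closest genes; Kcne1, Kcne2, the second Kcna1 probe set and the genes too dim for the fit were named after their values were seen. The members and lists were chosen with earlier results of these data known. Alternatives covered scaling, pseudocount, filter, variance prior, arrays, pools and the probe set that stands for a gene.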

Additional observations from a re-analysis of the deposited data

Results flagged for a closer look

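In 2 comparisons of Kcnip2 the arrays of each day did not overlap and their direction turned between the days. They came from a search of all member probe sets, and both use the same L4 pools. The share of all probe sets with such a turn was not counted, so the turn is not shown to be particular to Kcnip2. Both L4 arrays (328.9 and 319.4) lay above both sham arrays (278.5 and 226.8) at 28 days, and both L4 arrays (360.5 and 372.4) below both sham arrays (415.2 and 381.4) at 50 days. The L4 minus sham difference was 0.34 at 28 days and -0.11 at 50 days, a change of -0.45. Both L5 arrays (176.5 and 176) lay below both L4 arrays at 28 days, and both L5 arrays (453.6 and 379.7) above both L4 arrays at 50 days. The L5 minus L4 difference was -0.82 at 28 days and 0.17 at 50 days, a change of 0.99. Neither change was tested, because each kind of ganglion has 1 pool per day. The sham array of 28 days that read 278.5 is the one whose description gives 50 days.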

How the results depend on the processing

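With 2 pools per kind of ganglion the number of calls moved with the setting more than the differences did. The L5 against sham call of the Kv4 probe sets (2 of 5) became 1 with no filter and 0 with no intensity trend. It became 1 when probe sets of a gene were averaged. It ran from 0 to 2 when 1 array number or 1 pool was left out. For L5 against L4 the same settings gave 1, 0, 1 and 0 to 2. Hybridisation controls gave 3 there, with Kcnip2 added, but 6756 of all 15721 probe sets then passed and their median was -0.64. The day comparison went to 1 call under the replicate block (array number as a term, pool as a random block). Kcnip2 stood there at 0.65 (limma adjusted p = 0.029). In that setting 796 of all 15721 probe sets passed between the days, beside 45 in the main fit. Array numbers do not pair the pools: the array 1 minus array 2 differences of pools correlated at -0.10 to 0.11 over the 15 pairs of pools on each chip type. Calls among the listed partners and channels (1) became 0 under quantile normalization, 6 under median centring, 12 on hybridisation controls, 0 with no filter, 2 with the filter at the 60th percentile, 0 with no intensity trend, 7 under the replicate block and 0 to 6 with an array number or pool left out. Over all probe sets the L5 against sham calls (36 higher, 84 lower) became 17 and 26 under quantile normalization, 48 and 473 under median centring (median of all -0.10) and 34 and 2906 on hybridisation controls, where the median of all was -0.44; they numbered 31 with no filter, 3 with no intensity trend, 977 under the replicate block, 2 and 0 from the second and the first array alone and 12 to 621 with a pool left out. Relative to the median on hybridisation controls, Kcnd1 stood at -1.50, Kcnd3 at -1.59 and 0.40, Kcnd2 at -0.04 and Kcnip2 at -0.32. The L5 minus sham difference stayed negative for Kcnd1 (-1.26 to -1.94) and for rc_AI230211_s_at (-1.23 to -2.07, and -0.64 averaged with U92897_s_at) under every setting tried. Small values that missed the threshold turned sign. With an array number or pool left out, L4 minus sham ran from -0.20 to 0.48 for rc_AI230211_s_at (-0.02 without array 2, -0.20 without L4 at 50 days, -0.13 without sham at 50 days), from -0.09 to 0.63 for U92897_s_at (-0.06 without L4 at 28 days) and from -0.25 to 0.48 for Kcnip2. The day difference ran from -0.51 to 0.48 for rc_AI230211_s_at (0.03 without either L5 pool, 0.17 without either sham pool) and from -0.01 to 0.24 for Kcnd1; it was 0.01 for rc_AI230211_s_at with the 40th-percentile pseudocount and -0.03 for Kcnd1 on hybridisation controls. L5 minus sham ran from -0.12 to 0.89 for Mef2c, -0.43 to 0.22 for Nfatc4 (0.21 without L5 at 28 days), -0.20 to 0.13 for Mef2a (0.05 and 0.01 without L5 at 50 and sham at 28 days) and -0.82 to 0.43 for Kcnc4 (0.36 without array 2, 0.09 without L5 at 28 days), and on hybridisation controls was -0.22 for Dlg1, -0.00 for Mef2c and -0.27 for Nfatc3 (0.22, 0.44 and 0.16 relative to the median of all). For calls and signs that changed, the cause was not tested. Signals near the pseudocount limit Kcnd2 and 2 of the 3 Kcnd3 probe sets. They also limit the L5 side of rc_AI230211_s_at, where 1 array read 30 at 28 days and 1 read 15.1 at 50 days.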
